A study of Mus musculus with 20 samples.

Results

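The genes described here are the mouse proteasome genes: the subunits and dedicated assembly factors whose symbols begin with Psma to Psmg followed by a number, together with Pomp and Adrm1. The rule that picks them reads the symbol and no measured value, and 51 of the 34937 genes counted carried such a symbol. Their transcripts were measured in 19 single 8C embryos collected at E2.5, and embryos that lacked maternal G9a were compared with control embryos.

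The proteasome is the protease that degrades proteins tagged with ubiquitin. Its 20S core is a barrel of outer alpha rings, which gate the entrance, and inner beta rings, which hold the proteolytic sites, and it is capped by the 19S particle, whose ATPases unfold substrates and whose non-ATPase subunits bind and remove ubiquitin. Dedicated chaperones assemble both parts, and alternative caps and inducible beta subunits give the particle other forms. In the early embryo, ubiquitin-dependent degradation clears maternally stored proteins while the zygotic genome takes over.

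G9a, encoded by Ehmt2, dimethylates lysine 9 of histone H3. The 9 Ehmt2Cntr embryos came from Ehmt2F/+ mothers and the 10 Ehmt2Mat embryos from Ehmt2F/- mothers, all carrying Zp3-Cre, which acts in growing oocytes, and all were sired by Ehmt2+/- males. The controls comprised 3 zygotic Ehmt2+/- and 6 zygotic Ehmt2+/+ embryos, and the Ehmt2Mat group comprised 5 zygotic Ehmt2-/- embryos (Ehmt2M/Z) and 5 zygotic Ehmt2+/- embryos (Ehmt2M/+). One further control embryo was not analysed here. No label names the mother or litter of an embryo, so p-values measure the spread between these embryos, some of which may be littermates, and the zygotic genotypes differ between the maternal groups. Because one embryo was one library, fewer cells and less RNA per cell cannot be told apart.

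Total counts ranged from 8231646 to 30602434 per embryo, and proteasome genes took 0.613 to 0.998% of the counts in controls and 0.828 to 1.23% in Ehmt2Mat embryos. Levels are given as CPM (counts relative to TMM-scaled library size), and between genes as CPM per kilobase of exon (RPKM). Ehmt2 itself had a median of 133 CPM in controls (66.6 to 253) and 94.9 CPM in Ehmt2Mat embryos (58.7 to 159), a log2 difference of -0.47 ± 0.24 (SE) with an adjusted p of 0.233. These counts cover all exons, including any outside the deleted part, so they do not check the labels. All 7 markers of the 8C embryo were counted. Their summed level had a median of 2479 CPM in controls (1920 to 3397.5) and 3079 CPM in Ehmt2Mat embryos (2711 to 3614). Klf5 was lower in Ehmt2Mat embryos (edgeR, log2 fold change -1.49, adjusted p = 0.000486), and all 10 of these lay below every control. Tfap2c was higher in Ehmt2Mat embryos (edgeR, log2 fold change 0.75, adjusted p = 0.0183). The other markers of this set did not pass the threshold. Whether the groups differed in stage was not tested. Of 8 cumulus or granulosa markers, Amh, Foxl2, Has2 and Fshr were at 0 in every embryo and 4 were counted, among them Amhr2 in every embryo (22.4 to 109.5 CPM in controls, 42.1 to 164 CPM in Ehmt2Mat embryos) and Inha at up to 38.2 CPM in an Ehmt2Mat embryo. The summed level of the 8 had a median of 46.9 CPM in controls (22.4 to 113) and 73.4 CPM in Ehmt2Mat embryos (42.4 to 169), and its part in the results was not tested. The summed level of the 4 oviduct epithelium markers differed between the groups. Its median was 2.60 CPM in controls (0.0904 to 386) and 105 CPM in Ehmt2Mat embryos (10.0 to 2840). Ovgp1 (the oviduct glycoprotein) made up nearly all of the highest sums, at 2799 of 2840 CPM in Ehmt2Mat embryo 3. Ovgp1 itself did not pass the threshold in the maternal comparison (edgeR, log2 fold change 3.41, adjusted p = 0.0926). Pax8, Foxj1 and Krt7 were too weakly counted to be tested. The 4 leukocyte markers summed to 0 to 52.1 CPM in controls and 1.39 to 187 CPM in Ehmt2Mat embryos. Control embryo 10 held the highest oviduct and leukocyte sums of its group and 16142 genes with a count, against 12068 to 13230 in the other controls. On the first principal component of all genes tested (15.3% of the variance) it lay at 26.0, within the range of the Ehmt2Mat embryos (-3.03 to 133.5). The other controls lay between -79.0 and -49.6. The part of the oviduct markers in the results below was examined only by fits chosen after the marker levels had been seen. These left out the 6 embryos above 100 CPM of Ovgp1 or took the oviduct sum as a covariate.

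Before the values, the sequences upstream of 6 of the 7 genes that changed are shown, because they are where transcriptional control of the proteasome is usually sought. Nfe2l1 and Nfe2l2, transcription factors of proteasome genes, bind the antioxidant response core (TGACNNNGC), and NF-Y binds CCAAT. Of the 51 genes, 43 had a RefSeq promoter (GRCm38.p6), in 46 entries that span 250 bases before to 50 bases after a start. TGACNNNGC, searched on both strands, was in 15.2% of these 46 promoters and in 12.4% of all 32851 promoters, and CCAAT in 32.6% and 37.4%. The following 140-base stretches lie directly upstream of the first annotated start, with capitals marking the matches (ATTGG is CCAAT on the other strand). The stretch of Psme1, the seventh gene, is not shown because its RefSeq entry does not hold 140 bases upstream of the start in the count annotation. Among the 6 stretches, 1 held TGACNNNGC and 2 held CCAAT. The RefSeq promoter of Adrm1 also held CCAAT, downstream of its printed stretch. The stretches are shorter than the RefSeq promoters, so these counts are not comparable with the shares above.
Psmc5 (chr11:106256014-106256153, plus strand): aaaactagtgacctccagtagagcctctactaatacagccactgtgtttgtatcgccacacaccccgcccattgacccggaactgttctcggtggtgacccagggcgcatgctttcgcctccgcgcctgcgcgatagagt
Psmd4 (chr3:95042615-95042754, minus strand): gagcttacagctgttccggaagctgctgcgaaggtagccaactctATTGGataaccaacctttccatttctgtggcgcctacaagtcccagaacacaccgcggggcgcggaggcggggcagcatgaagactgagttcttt
Psmd6 (chr14:14120985-14121124, minus strand): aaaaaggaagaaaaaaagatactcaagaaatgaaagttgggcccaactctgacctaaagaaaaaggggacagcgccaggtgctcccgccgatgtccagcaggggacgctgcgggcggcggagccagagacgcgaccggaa
Psmg3 (chr5:139826895-139827034, minus strand): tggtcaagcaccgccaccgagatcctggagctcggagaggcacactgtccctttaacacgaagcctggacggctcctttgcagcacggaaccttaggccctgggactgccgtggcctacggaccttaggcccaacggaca
Adrm1 (chr2:180171345-180171484, plus strand): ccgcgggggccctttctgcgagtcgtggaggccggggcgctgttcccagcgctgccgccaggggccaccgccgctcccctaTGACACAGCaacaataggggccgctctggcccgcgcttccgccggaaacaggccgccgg
Psmd10 (chrX:140956729-140956868, minus strand): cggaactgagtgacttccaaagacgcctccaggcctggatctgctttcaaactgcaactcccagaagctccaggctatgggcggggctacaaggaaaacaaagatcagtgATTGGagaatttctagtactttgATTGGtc
The stretch of Adrm1, which is lower in Ehmt2Mat embryos, held the TGACNNNGC match, and those of Psmc5, Psmd6 and Psmg3 held neither motif. These matches are letters in a window and were not tested as sites.

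Levels of the constitutive proteasome genes differed widely in the 8C embryo, also between subunits of the same ring. In all, 17 of the 47 genes that passed the filter on low counts had a median above 100 RPKM over the 19 embryos. The share of all genes above that level was not computed. In controls the 19S lid subunit Psmd7 had the highest median at 489 RPKM, followed by Psma6, a subunit of the alpha ring, at 461 RPKM, the lid subunit Psmd8 at 309 RPKM and Psmb1, a structural beta subunit, at 216 RPKM. In Ehmt2Mat embryos Psma6 was at 638 RPKM and Psmd7 at 505 RPKM. The RPKM order of these 2 thus differed between the groups, and their ranges overlapped within each. By CPM, which is not divided by length, Psmd7 had the higher median in both groups. It was at 781 CPM against 569 CPM for Psma6 in controls, and 808 against 787 CPM in Ehmt2Mat embryos. Over the 19 embryos Psmb1 ranked 4 by RPKM and 9 by CPM. Within the alpha ring, whose subunits are needed in equal number, control medians of the 7 genes tested ran from 2.61 RPKM for Psma3 and 33.1 RPKM for Psma5 to 461 RPKM for Psma6. The 6 ATPases ran from 50.0 RPKM for Psmc3 to 173 RPKM for Psmc6 in controls, with Psmc5 at 110 RPKM there and at 226 RPKM in Ehmt2Mat embryos. The amplification favours the 3′ end, and some genes share 50-base stretches with other loci, so the RPKM order carries both: 12 of the 51 genes shared more than 10% of such windows, among them Psma3 (15.4%), Psma5 (50.0%), Psmb5 (54.1%) and Psme2b (69.3%), and for those the counts are uncertain.

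**Figure D1:**
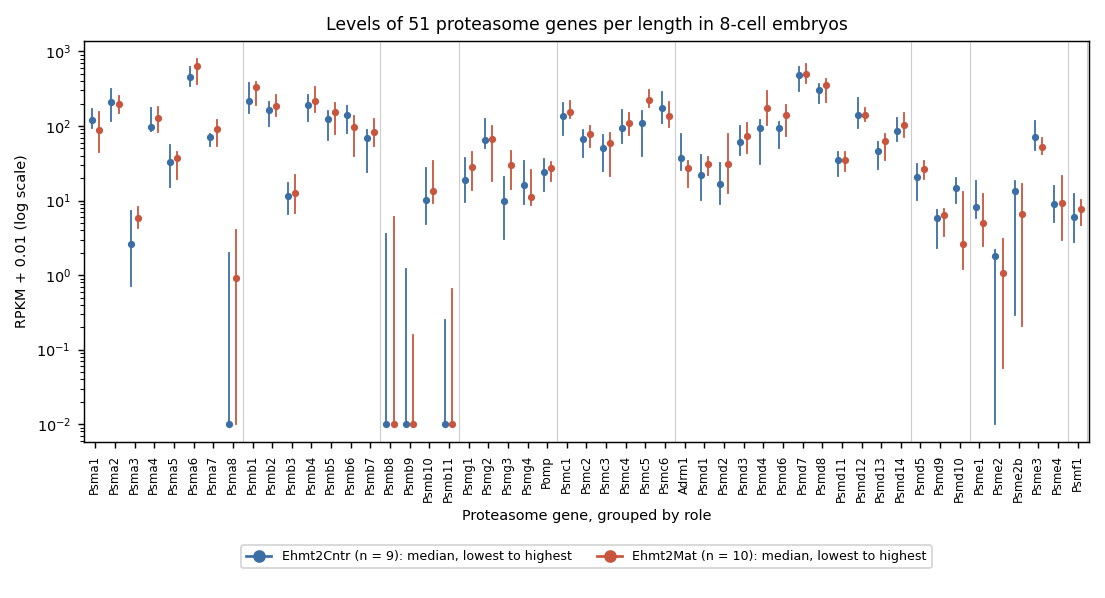
Levels of the 51 genes in RPKM plus 0.01 (log scale), grouped by role, with the median (point) and the lowest to highest embryo (line) of 9 Ehmt2Cntr (blue) and 10 Ehmt2Mat (red) embryos. Most constitutive subunits lie between 10 and 600 RPKM, while Psma8, Psmb8, Psmb9, Psmb11 and, in its lowest control, Psme2 reach the plotted floor.

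Of the 51 genes, 47 passed the filter and were tested, and 7 of these passed an adjusted p of 0.05 in the maternal comparison (edgeR quasi-likelihood test, Benjamini-Hochberg adjustment over 11754 genes), beside 9.35% of all genes tested. Psmc5, Psmd4, Psmg3 and Psmd6 were higher in Ehmt2Mat embryos, 4 genes beside a background of 4.37%, and Psmd10, Adrm1 and Psme1 were lower, 3 genes beside a background of 4.98%. At an unadjusted p under 0.05 there were 18 genes (background 23.3%). The log2 fold change was above 0 for 33 of the 47 genes, or 70.2%, beside 47.6% of all genes, and its median was 0.23 beside -0.04. Most differences were small, with 36 of the 47 genes within 0.5 of 0 on the log2 scale. DESeq2 called 10 of the 47 genes (background 15.1%), adding Psma6, Psmd2 and Psmb6, and without control embryo 10 there were 9 calls among 48 genes (background 10.6%). A count this small was not tested against the background, so the calls are described gene by gene.

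**Figure D2:**
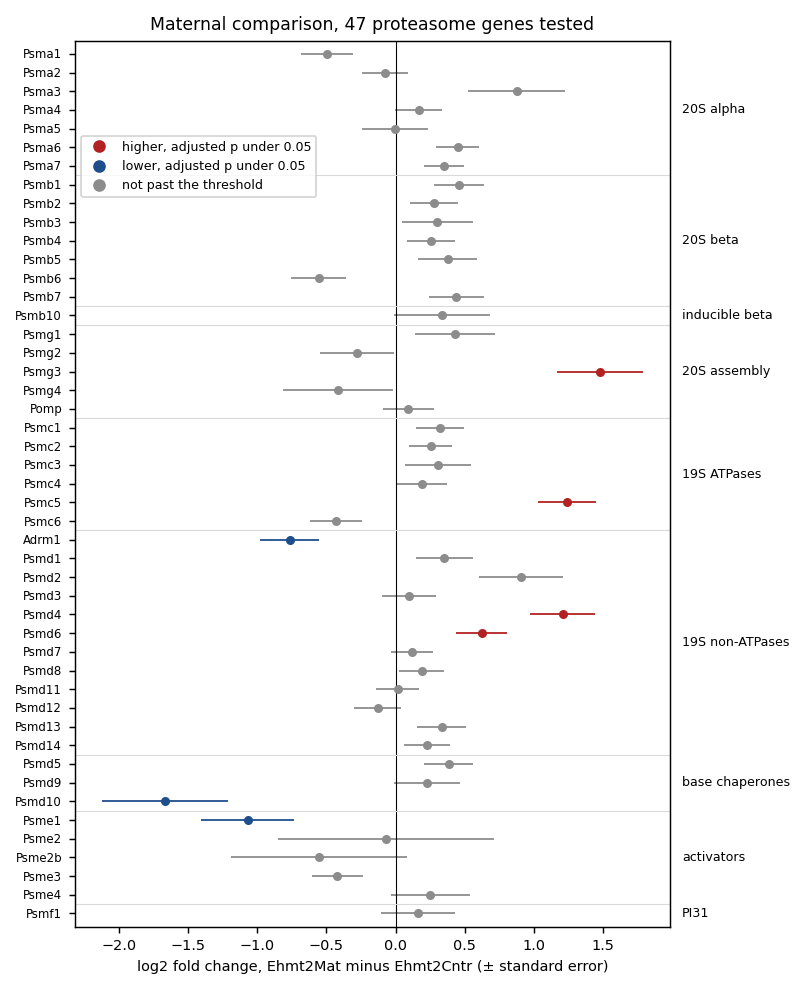
Log2 fold change (Ehmt2Mat minus Ehmt2Cntr) with its standard error for the 47 genes tested, in rows grouped by role, with red for higher and blue for lower at an adjusted p under 0.05. The 4 genes called higher lie between 0.62 and 1.48, the 3 called lower between -1.67 and -0.77, and the core alpha and beta subunits have no call.

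Psmc5, an ATPase of the 19S base, was the one member whose groups did not overlap, as for 0.519% of all genes. The lowest, median and highest control had 55.6, 153 and 219 CPM, and the lowest, median and highest Ehmt2Mat embryo 255, 314 and 425 CPM. Every Ehmt2Mat embryo was above every control, in both zygotic genotypes. The fitted log2 fold change was 1.24 ± 0.21 (SE), a 2.36-fold difference (adjusted p = 0.000922). It was the only ATPase called of 6, and the others lay between -0.43 for Psmc6 and 0.32 for Psmc1.

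Psmd4 is a ubiquitin receptor of the 19S particle. Its CPM ran from 85.7 (median 261) to 342 in controls and from 286 (median 495) to 824 in Ehmt2Mat embryos, and 9 of 10 Ehmt2Mat embryos exceeded every control. The log2 fold change was 1.21 ± 0.24 (adjusted p = 0.00242), and 0.77 (adjusted p = 0.539) with zygotic genotype as a covariate. Adrm1, also a ubiquitin receptor, moved the opposite way to Psmd4. It had 115 to 347 CPM (median 166) in controls against 67.3 to 150 CPM (median 123) in the Ehmt2Mat group. All 10 Ehmt2Mat embryos were below the control median, and the log2 fold change was -0.77 ± 0.21 (adjusted p = 0.0235). Adrm1 shares 25.7% of its 50-base windows with the locus Gm9774, so its counts are uncertain, and its call rested on control embryo 7: without it the log2 fold change was -0.62 and the adjusted p 0.0579.

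Psmd6, a subunit of the 19S lid, spanned 119 to 262 CPM in controls (median 222) and 170.1 to 449 CPM after maternal loss (median 324), with 8 Ehmt2Mat embryos above every control. Its log2 fold change was 0.62 ± 0.18 (adjusted p = 0.0329). The call was lost in 7 of the 19 fits that left out 1 embryo, without control 1, 3 or 9 or Ehmt2Mat 1, 3, 5 or 9, with adjusted p from 0.0519 to 0.0606. Psmd7, the highest 19S gene and the partner of the deubiquitinase Psmd14, spanned 477 to 1003 CPM in controls and 609.5 to 1098 CPM in the Ehmt2Mat group, with a log2 fold change of 0.12 ± 0.15 (adjusted p = 0.70). Of the 12 non-ATPases, 10 had a log2 fold change above 0, and 3 were called. Psmd2, a scaffold of the base, missed the threshold (log2 fold change 0.91, adjusted p = 0.06).

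No subunit of the 20S core was called, among 7 alpha, 7 beta and 1 inducible beta gene tested, although an adjusted p that misses the threshold does not show equal levels. Psma3, an alpha subunit, had the largest difference, at 2.72 to 28.5 CPM (median 10.2) in controls and 16.9 to 31.6 CPM (median 22.6) in the Ehmt2Mat group, a log2 fold change of 0.88 ± 0.35 (adjusted p = 0.12). All 10 Ehmt2Mat embryos exceeded the control median. Control embryo 10 was the highest control, and without it the log2 fold change was 1.14 (adjusted p = 0.0343). Psma6 spanned 424 to 763 CPM in controls and 452 to 978 CPM in the Ehmt2Mat group (log2 fold change 0.45 ± 0.15, adjusted p = 0.0634). Psmb1 spanned 156 to 393 and 196 to 409 CPM (log2 fold change 0.46 ± 0.18, adjusted p = 0.113). Psmb6, which carries the caspase-like activity of the core, was the exception in direction among the beta genes, with 150.1 to 342 CPM in controls and 73.9 to 259 CPM in Ehmt2Mat embryos (log2 fold change -0.55 ± 0.20, adjusted p = 0.0766). All 10 Ehmt2Mat embryos were below its control median.

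**Figure D3:**
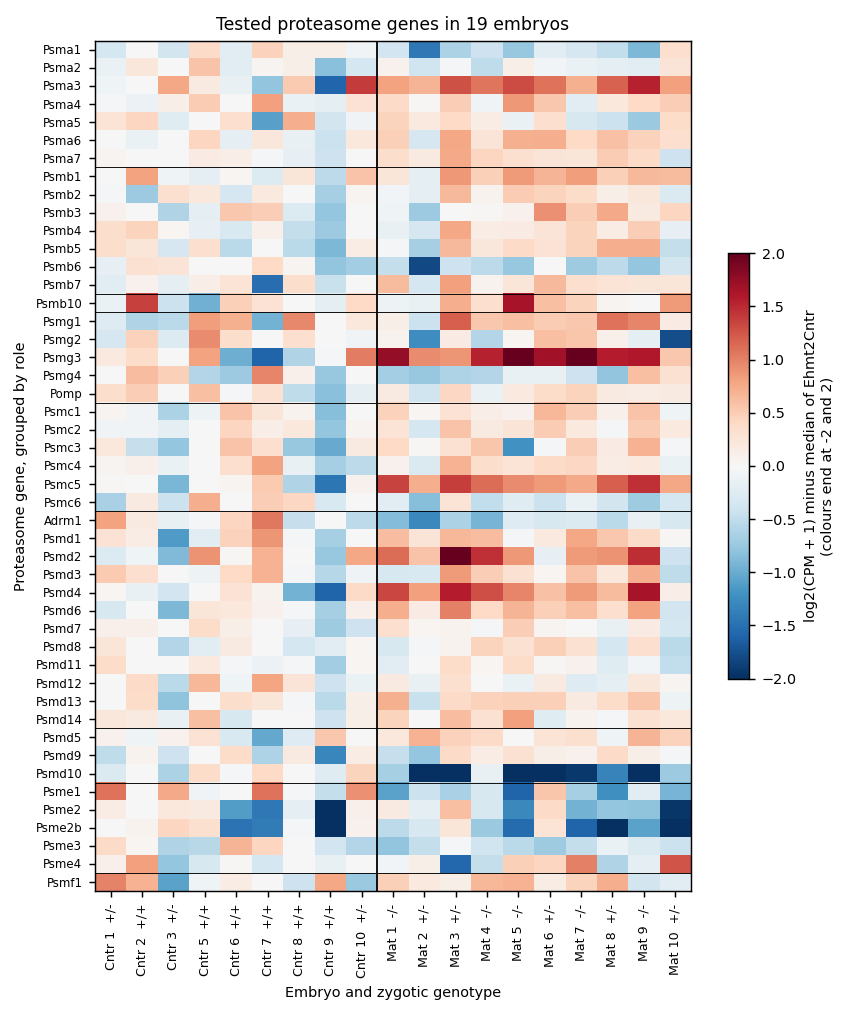
Log2(CPM + 1) of the 47 tested genes minus the median of Ehmt2Cntr, by embryo (columns, with zygotic genotype) and by gene (rows, grouped by role), with colours ending at -2 and 2. Psmc5, Psmd4 and Psmg3 are redder in the Ehmt2Mat columns and Psmd10 is bluer in most of them, while most core subunits are pale.

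Psmg3, an assembly chaperone of the alpha ring, had the largest rise. Controls ran from 8.77 to 59.4 CPM (median 28.6) and Ehmt2Mat embryos from 41.9 to 135 CPM (median 87.8), with 7 Ehmt2Mat embryos above every control. The log2 fold change was 1.48 ± 0.31 (adjusted p = 0.00421), and 0.71 (adjusted p = 0.702) with zygotic genotype as a covariate. Its exons overlap Gm26938 on the same strand over 9.68% of their bases. The other chaperones of the core did not pass: Psmg2 (log2 fold change -0.28 ± 0.27, adjusted p = 0.59), Psmg1 (0.43), Psmg4 (-0.41) and Pomp (0.09).

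Psmd10 (gankyrin, a chaperone of the 19S base) had the largest fall. Controls ran from 13.6 to 29.7 CPM (median 21.5) and Ehmt2Mat embryos from 1.77 to 19.4 CPM (median 3.85), with 9 of 10 Ehmt2Mat embryos below every control. Ehmt2Mat embryos 1, 4 and 10 were the highest of their group. The log2 fold change was -1.67 ± 0.46, that is 3.17-fold lower (adjusted p = 0.022). Psmd5, another base chaperone and the most abundant of the 3, was at 74.2 to 220 CPM in controls and 142 to 246 CPM in Ehmt2Mat embryos (log2 fold change 0.38 ± 0.18, adjusted p = 0.187).

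Psme1, a subunit of the PA28 activator cap, had 12.8 to 40.0 CPM in controls (median 18.2) and 5.35 to 27.1 CPM in the Ehmt2Mat group (median 11.2). The log2 fold change was -1.07 ± 0.34 (adjusted p = 0.0452), and the call was lost in 13 of the 19 fits that left out 1 embryo, those without control 1, 3, 7 or 10 or any Ehmt2Mat embryo other than 6, with values from -1.27 to -0.96 over all 19. Psme3, the nuclear activator, had 139.8 to 340 CPM in controls and 122 to 205 CPM in the Ehmt2Mat group (log2 fold change -0.42 ± 0.18, adjusted p = 0.163). Psmf1, which encodes the inhibitor PI31, had 18.1 to 78.4 and 29.9 to 65.6 CPM (log2 fold change 0.16 ± 0.27, adjusted p = 0.79).

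**Figure D4:**
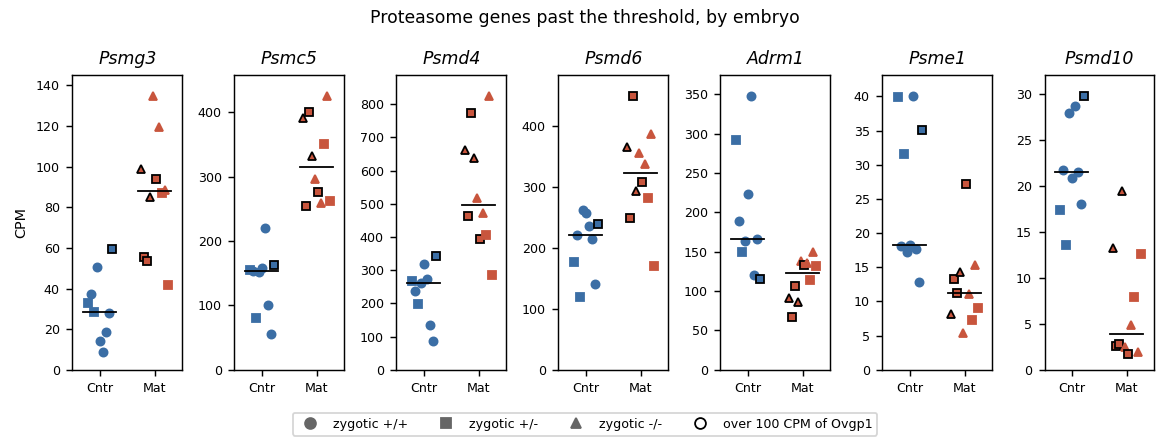
CPM of the 7 genes called, by embryo, in Ehmt2Cntr (Cntr, blue) and Ehmt2Mat (Mat, red), with the zygotic genotype as symbol, the median as a line and a black edge for embryos above 100 CPM of Ovgp1. Only Psmc5 shows no overlap, and Psmd10 has 9 of 10 Ehmt2Mat embryos below 13.6 CPM.

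Across the zygotic genotypes, Psmg3 and Psmd4 were lowest in Ehmt2+/+ controls and highest in Ehmt2M/Z embryos. The mean of Psmg3 was 26.1 CPM in +/+ and 40.3 CPM in +/- controls, 66.4 CPM in Ehmt2M/+ and 105 CPM in Ehmt2M/Z embryos, and that of Psmd4 was 219, 270, 465 and 622 CPM. The ranges of neighbouring groups overlapped for both genes. None of the other genes called rose or fell steadily in this order. Means in the same order were 140, 133, 309 and 341 CPM for Psmc5 and 222, 178, 292 and 348 CPM for Psmd6. They were 23.1, 20.2, 5.54 and 8.39 CPM for Psmd10 and 201, 186, 111 and 120 CPM for Adrm1. For Psme1 they were 20.7, 35.5, 13.6 and 10.9 CPM. Between Ehmt2M/Z and Ehmt2M/+ embryos, none of 48 genes passed the threshold, as none of 12195 genes did (edgeR), and 1 of the 48 had an unadjusted p under 0.05 (background 2.21%). With zygotic genotype matched at +/- (3 controls against 5 Ehmt2M/+), none of 49 genes passed, beside 1 of 13401 genes (0.00746%), and 4 had an unadjusted p under 0.05 (background 6.76%). In that smaller comparison, which shares embryos with the larger one, the log2 fold change of Psmg3 was 0.70 and that of Psmd4 0.76, against 1.48 and 1.21 over all embryos. The other 5 genes were at 1.19 (Psmc5), 0.68 (Psmd6), -0.76 (Adrm1), -1.89 (Psmd10) and -1.40 (Psme1), and adjusted p for the 7 genes lay between 0.608 and 0.89. With zygotic genotype as a covariate over all embryos, none of the 47 genes was called and 3 genes were called in all. The maternal and zygotic parts of the differences cannot be told apart at this number of embryos.

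Fewer genes were called, among the proteasome genes and among all genes, in the fits that took the oviduct markers into account. Leaving out the 6 embryos above 100 CPM of Ovgp1 (control 10 and Ehmt2Mat 1, 2, 3, 4 and 6) left 8 controls and 5 Ehmt2Mat embryos. Psmc5, Psmd4 and Psmg3 were called there (log2 fold change 1.25, 1.17 and 1.79) and no proteasome gene was called lower, beside 2.69% of all genes. Psmd6 was at 0.59 (adjusted p = 0.219). Psmd10 was then at -1.83 (adjusted p = 0.0687), and Adrm1 and Psme1 at -0.62 and -1.34 (adjusted p = 0.207 and 0.12). With the oviduct sum as a covariate, none of the 47 genes was called (31 genes in all), and Psmc5 was at 1.11 (adjusted p = 0.077). In that fit Psmd4 was at 0.90, Psmg3 at 1.41, Psmd6 at 0.47, Psmd10 at -1.72, Adrm1 at -0.51 and Psme1 at -1.33. The first fit had fewer embryos, and the oviduct sum differed between the maternal groups. Lost calls alone therefore cannot show a part of the oviduct markers.

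The 4 genes below the filter are the tissue-restricted subunits. Psmb8 and Psmb9, subunits of the immunoproteasome, were counted mainly in the embryos with high oviduct markers: Psmb8 reached 16.4 CPM in Ehmt2Mat embryo 3 and 9.64 CPM in control 10, and had 3 counts or fewer in the other 8 controls. Psmb9 reached 4.36 CPM in control 10 and 0.547 CPM in Ehmt2Mat embryo 4. Not every embryo with high oviduct markers had them. Psmb9 had 0 counts in Ehmt2Mat embryo 3, which held the highest oviduct sum, and Psmb8 had 0 counts in Ehmt2Mat embryo 6. The part of the oviduct and leukocyte signal in these values was not tested. Psmb10, the third inducible subunit, was counted in every embryo, at 6.15 to 34.9 CPM in controls and 11.6 to 42.7 CPM in Ehmt2Mat embryos (log2 fold change 0.34 ± 0.35, adjusted p = 0.622). Psma8, a testis-specific alpha subunit, had more than 3 counts in 3 controls and 6 Ehmt2Mat embryos, with at most 6.77 CPM, and Psmb11, the thymus-specific beta subunit, had more than 3 counts in 2 embryos of each group.

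**Figure D5:**
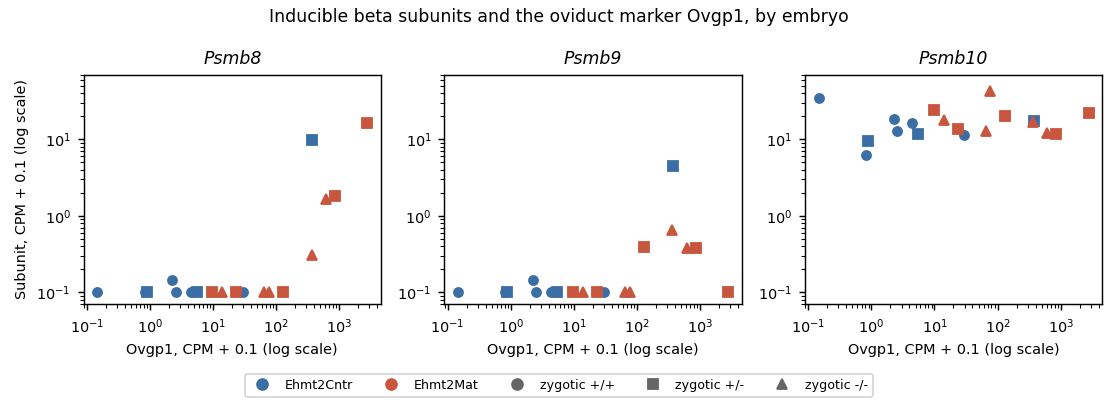
CPM plus 0.1 of Psmb8, Psmb9 and Psmb10 against Ovgp1 CPM plus 0.1 in each embryo (both axes log scale), coloured by maternal group with the zygotic genotype as symbol. Psmb8 and Psmb9 lie at the floor in most embryos and rise above it mainly in those with high Ovgp1, whereas Psmb10 is counted throughout.

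Beyond the proteasome itself, 35 genes that supply or deliver its substrates were tested: ubiquitin, its activating enzymes, p97 with its cofactors, shuttle proteins and transcriptional regulators. Of these, 1 was called higher (background 4.37%) and 1 lower (background 4.98%), and 14 had an unadjusted p under 0.05 beside the background of 23.3%. The log2 fold change was above 0 for 11 of the 35 genes, or 31.4%, beside 47.6% of all genes. Zfand2a, a stress-induced proteasome-associated protein, had 74.9 to 269 CPM in controls and 251 to 519 CPM in the Ehmt2Mat group, with 9 of 10 above every control (log2 fold change 1.09 ± 0.20, adjusted p = 0.00182). Its relative Zfand2b fell, with 22.5 to 64.1 CPM in controls against 7.99 to 33.6 CPM (log2 fold change -1.11 ± 0.30, adjusted p = 0.022). With the oviduct sum as a covariate neither passed the threshold. Sem1, a small 19S subunit outside the symbol rule, had a log2 fold change of 0.85 ± 0.32 (adjusted p = 0.0951). Of the regulators of proteasome transcription, Nfe2l1 was at 0.06 ± 0.21 (adjusted p = 0.906), Nfe2l2 at -1.05 ± 0.53 (adjusted p = 0.241), Ddi2, the protease that activates Nfe2l1, at -0.48 ± 0.25 (adjusted p = 0.239) and Ngly1, its deglycosylase, at -1.22 ± 0.64 (adjusted p = 0.255).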

How the data were processed

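The authors deposited raw counts of reads per gene for each embryo, made with featureCounts 1.5.0 on exons of Ensembl release 82 (GRCm38/mm10), per the file headers, with a minimum overlap of 10 bases, multi-mapping reads kept and reads given to every gene they overlap. No strand option was set, and the aligner of these files is not given in the sources used here. Whether multi-mapping reads had already been dropped at the alignment is therefore not known. Single-embryo cDNA was amplified with a 3′ bias and read as 50-base single ends.

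From the counts, edgeR 4.0.16 (R 4.3.3) was fitted over all genes that passed filterByExpr (11754), with TMM scaling, the quasi-likelihood test and Benjamini-Hochberg adjustment at 0.05. On simulated data the fit gave unbiased fold changes and few false calls but missed most of the planted changes. A gene without a call may therefore still differ. Genes were named by a rule: all called genes, and the highest and the most changed of each role. Members and lists were chosen with earlier results of these data known. DESeq2 1.42.0 and other alternatives are in the closing section. Counts of 3 or fewer were taken as the floor.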

Additional observations from a re-analysis of the deposited data

Results flagged for a closer look

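In 2 of the 34 groups of named genes that were examined for a sample far from the others, Ehmt2Mat embryo 2 stood below the rest of its group, which was flagged by its gap to the nearest embryo relative to the range. Psma6 was at 452.4 CPM in this embryo, against 678 to 978 CPM in the other Ehmt2Mat embryos. Psmb6 was at 73.86 CPM, against 153 to 258.7 CPM in the others. Chance flags about 1 in 20 groups, and both flags come from the same embryo, so they are not independent.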

How the results depend on the processing

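Shares in parentheses are those of all genes tested under the same setting. Of the 47 genes, 7 were called under RLE scaling (9.44%), with counts thinned to the lowest total (10.5%) and with mitochondrial genes left out (9.41%), and 6 under upper-quartile scaling (9.36%). Without a filter 6 of 51 were called (5.67%), with DESeq2 10 of 47 (15.1%), and where each embryo had to reach 10 counts 10 of 45 (19.2%). Under a replicate block on embryo number, 4 were called (3 higher, 1 lower, beside 6.05% of all genes), and the pathway list had 1 call. The numbers do not pair the embryos: the 9 pairs' deviations correlated between -0.156 and 0.0856. With zygotic genotype as a covariate 0 were called, 0 higher and 0 lower (5 at an unadjusted p under 0.05), and with the oviduct sum 0 were called, 0 higher and 0 lower (8 at an unadjusted p under 0.05). Without the embryos above 100 CPM of Ovgp1, 3 were called (2.69%) and 0 lower. Leaving out 1 embryo gave 5 to 9 calls (7.5 to 10.8%), 3 to 6 higher and 1 to 4 lower. Of 35 genes, the pathway list had 2 calls in the main comparison (9.35%) and 8 with DESeq2 (15.1%). It had 1 call without the embryos high in Ovgp1 (2.69%) and 0 with the oviduct sum as a covariate (0.264%). With 1 embryo left out it had 2 to 4 calls (7.5 to 10.8%). Psmd7 turned to -0.023 with zygotic genotype as a covariate. The causes were not tested. An exact permutation test over all 92378 splits of the embryos was adjusted over all genes. It called 8 of the 47 genes, beside 1340 of all 11754 genes tested, and added Psma3 (adjusted p = 0.0222).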
